A study of Mus musculus with 20 samples.

Results

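Gene expression in the livers of mice given the CL diet was compared with that in the livers of mice kept on normal chow (NC), with 5 livers in each group. The 10 livers were chosen by the diet in their sample titles from the 20 livers of the series, 1 array per mouse. All mice were C57BL/6J males, 7 weeks old when the diets began, and their livers were taken after 12 weeks on the diet and a fast of 2 h. The NC mice ate CRF-1 chow. In the CL diet, which is used to bring about nonalcoholic steatohepatitis (a fatty, inflamed and scarring liver), fat supplied 60% of the calories, and the diet held cholesterol at 1.25% and, as the bile salt, sodium cholate at 0.5%. The other 10 mice ate the same CL diet supplemented at 0.02% with either astaxanthin (CL + AX) or vitamin E (CL + VE). Their means were not part of the comparison. Their arrays entered the normalization, the choice of each gene's brightest probe set, the brightness cut and the estimate of the spread. Fat, cholesterol and cholate differed between the groups together, so their parts in any difference cannot be told apart. The hour at which the livers were taken is not given in the sources used here.

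Most of the liver's mass is hepatocytes, which burn and store fat, make plasma proteins, clear ammonia and turn cholesterol into bile acids. Kupffer cells and recruited macrophages, lymphocytes, stellate cells and sinusoidal endothelium lie between them. In steatohepatitis, lipid-laden hepatocytes are injured, macrophages gather around them and stellate cells lay down matrix. Cholate in the diet activates the bile acid receptor FXR, and dietary cholesterol turns down the liver's own sterol synthesis. The signals are those of whole liver. A lower signal from fewer cells of a type and one from less RNA per cell cannot be told apart.

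The samples matched their tissue label. Alb, the main protein of plasma, had a log2 signal of 13.34 to 13.60 in the NC livers and 13.35 to 13.53 in the CL livers, and Ttr, a carrier of thyroxine, 13.57 to 13.68 and 13.52 to 13.63. Between CL and NC, Alb had a log2 fold change of -0.07 (SE 0.07, limma adjusted p = 0.541), Ttr of -0.03 (SE 0.05, adjusted p = 0.738), Apoa1, the main protein of high-density lipoprotein, of 0.02 (SE 0.05, adjusted p = 0.829) and Cps1, the first enzyme of the urea cycle, of 0.01 (SE 0.05, adjusted p = 0.921). These 4 hepatocyte genes are among the brightest on the array and depend on the scaling: with 1 factor per array, Apoa1 had -0.38 (adjusted p = 0.00916) and Cps1 -0.34 (adjusted p = 0.0111). Of 19 pancreatic acinar markers, none passed the test, and of 25 skeletal muscle markers, 1 was lower, but only 2 and 5 of these reached the median brightness, so a difference could hardly be detected. Among all genes, 12.0% were higher and 11.3% lower. Of 16 adipocyte markers, 3 were higher and 3 lower (18.8% each). Of 24 markers of gut and gallbladder epithelium, 3 were higher (12.5%) and 2 lower (8.3%). Of 17 erythroid markers, 2 were lower (11.8%), close to the share of all genes, and none was higher. The 2 were Alas2, which starts heme synthesis, and Slc4a1, the anion exchanger of red cells.

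The arrays of the 2 groups also differed in ways that are not liver genes. Array medians lay between 13.01 and 18.79 in the NC group and between 19.35 and 24.80 in the CL group, on the linear scale and before normalization. The log2 ratio of the 3' to the 5' probe set of Gapdh, which rises when RNA is shorter, was 0.38 to 0.78 in NC and -0.26 to -0.086 in CL. For dap, a bacterial RNA added as a labelling control, this log2 ratio was 2.97 to 3.39 in NC and 1.12 to 1.45 in CL, and for thr, another such control, 2.42 to 3.07 and 2.02 to 2.37. In none of these measures did the groups overlap. Of 19 such measures, 8 differed by the two-sided exact permutation test at an adjusted p under 0.05. For 7 of them the exact p = 0.00794, the smallest that 5 arrays against 5 allow, with an adjusted p of 0.0215. The log2 signal of 18S rRNA, which oligo-dT priming should leave out, was among these 7 for its 3' probe set. It was 7.74 to 9.18 in NC and 10.1 to 11.5 in CL. For its 5' probe set the groups overlapped, with 9.37 to 12.0 in NC and 11.5 to 13.1 in CL (exact permutation p = 0.0159). The labelling controls phe (exact p = 0.468) and lys (exact p = 0.548) and the hybridization controls bioB, bioC, bioD and cre (exact p = 0.143 to 0.659) did not pass. Diet and the labelling of the NC arrays cannot be told apart by these samples, and this holds for every result that follows. With the Gapdh ratio of each array as a covariate, no gene passed limma's test, and over all probe sets 4821 had an unadjusted p under 0.05 and the median SE was 3.07 times as large. With the dap ratio as a covariate, 1125 genes passed.

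**Figure D1:**
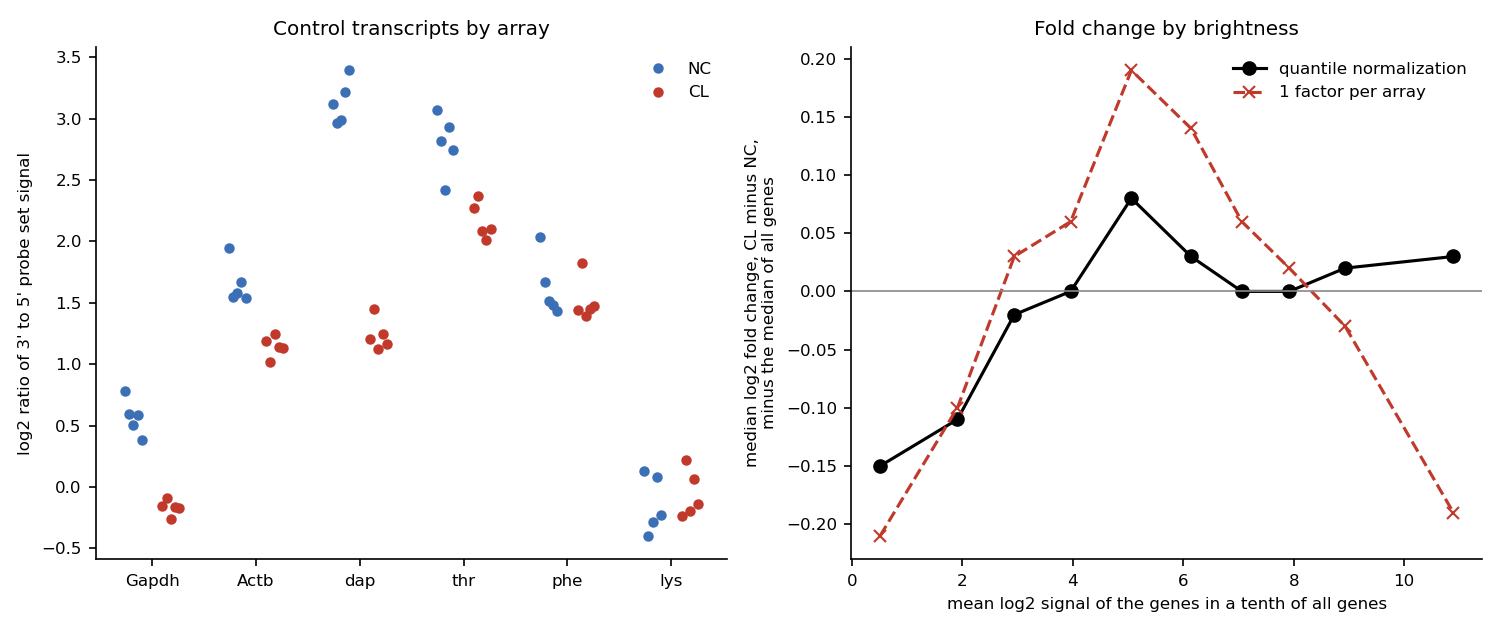
Left, log2 ratio of the 3' to the 5' probe set signal of 6 control transcripts (vertical axis), 1 point per array, NC in blue and CL in red; Gapdh, Actb, dap and thr are apart, while phe and lys overlap. Right, median log2 fold change between CL and NC in each of 10 equal bins of genes by brightness, minus the median of all genes (vertical axis), against the mean log2 signal of that bin (horizontal axis), where the brightest bin lies at 0.03 with quantile normalization and at -0.19 with 1 factor per array.

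Rises and falls were about as many with quantile normalization. Of 18194 genes, each read from its brightest probe set, 4231 (23.3%) had an adjusted p below 0.05, with 2183 higher in CL (12.0%) and 2048 lower (11.3%), and for 2897 genes (15.9%) the groups did not overlap. Over all 45037 probe sets, 7910 (17.6%) passed, 4178 higher (9.28%) and 3732 lower (8.29%). The rises were larger than the falls: 822 genes (4.52%) rose by more than 1 on the log2 scale and 275 (1.51%) fell by more than 1. Of the 16468 protein-coding genes, 2128 rose and 1972 fell, and of the 1355 genes of long non-coding RNAs, which are mostly dim here, 33 rose and 57 fell. The first principal component of the brighter probe sets held 45.1% of the variance over the 10 arrays and put the NC livers at -51.7 to -28.3 and the CL livers at 35.5 to 62.1. Medians of gene classes are given below as log2 fold changes minus the median of all genes, which was -0.04 with quantile normalization, 0.39 without scaling, -0.11 with median centring and 0.03 with 1 factor per array. The split of the calls followed the scaling, with 5132 genes higher and 212 lower without scaling, 1705 and 2757 with median centring and 2764 and 1856 with 1 factor per array. The last 3 settings of the median shift each array as a whole and give the same relative medians. Class counts below stand beside 12.0% higher and 11.3% lower among all genes. The lists were chosen with earlier results of these data known, so a count above these shares is no test of a class. Calls were more frequent among bright genes, with 20.7% higher and 20.6% lower in the brightest of 10 equal bins. With 1 factor per array, 13.2% were higher and 38.0% lower in that bin, and its median was -0.19. Medians of bright classes with 1 factor per array are to be read beside that value.

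The largest rises among genes of at least median brightness were listed with no test of a theme. Besides Mmp12, Gpnmb and Ccl2, the largest rises included Pla2g7, which inactivates platelet-activating factor, with a log2 fold change of 3.88 (SE 0.43). Ly9, a lymphocyte receptor of the SLAM family, had 4.18 (SE 0.66) and Cd48, a ligand of that family, 3.36 (SE 0.33). Cd48 had log2 signals of 3.26, 3.07, 3.98, 3.69 and 3.53 in NC replicates 1 to 5 and of 6.59, 7.66, 6.66, 7.07 and 6.37 in CL replicates 1 to 5. That every CL liver lay above every NC liver was a condition of the list. Lgals3, galectin-3, rose by 3.39 (SE 0.52) and Calhm6, a channel protein of immune cells, by 3.43 (SE 0.56). Cxcl2, which attracts neutrophils, rose by 3.36 (SE 0.68) and Pkib, an inhibitor of protein kinase A, by 3.90 (SE 0.58). NC signals were dim and scattered for Ly9 (-0.79 to 3.75), Pkib (-0.97 to 3.59), Cxcl2 (-0.68 to 4.14) and Calhm6 (-0.01 to 4.41). The sizes of the rises of these genes are therefore imprecise. Lyz1 and Lyz2, the 2 lysozymes, rose by 3.50 (SE 0.30) and 3.41 (SE 0.37), and their transcripts are so alike that the probe sets may share signal. Hectd2os, a non-coding transcript, rose by 3.30 (SE 0.52).

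The largest falls, listed by the same rule, included genes of sterol and bile acid synthesis (Sqle, Idi1, Cyp51, Msmo1, Cyp7a1 and Cyp8b1). Ciart, a clock gene given below, fell by 4.51 but did not reach the brightness cut. Ppp1r3g, a subunit that steers protein phosphatase 1 to glycogen after a meal, had log2 signals of 8.59, 9.85, 7.55, 8.73 and 7.47 in NC and of 2.99, 6.91, 6.40, 3.63 and 4.30 in CL. It fell by 3.59 on the log2 scale (SE 0.64, adjusted p = 0.000348), and its signal varied much among the mice of each group. Asns, asparagine synthetase, had 6.65, 9.16, 9.03, 8.72 and 6.99 in NC and 3.83, 5.41, 4.17, 4.81 and 4.59 in CL. It fell by 3.55 (SE 0.41, adjusted p = 4.09e-06), and groups apart were again a condition of the list. Susd4, a complement inhibitor that is higher in male liver, fell by 2.18 (SE 0.27) and Lipg, endothelial lipase, by 2.10 (SE 0.21).

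**Figure D2:**
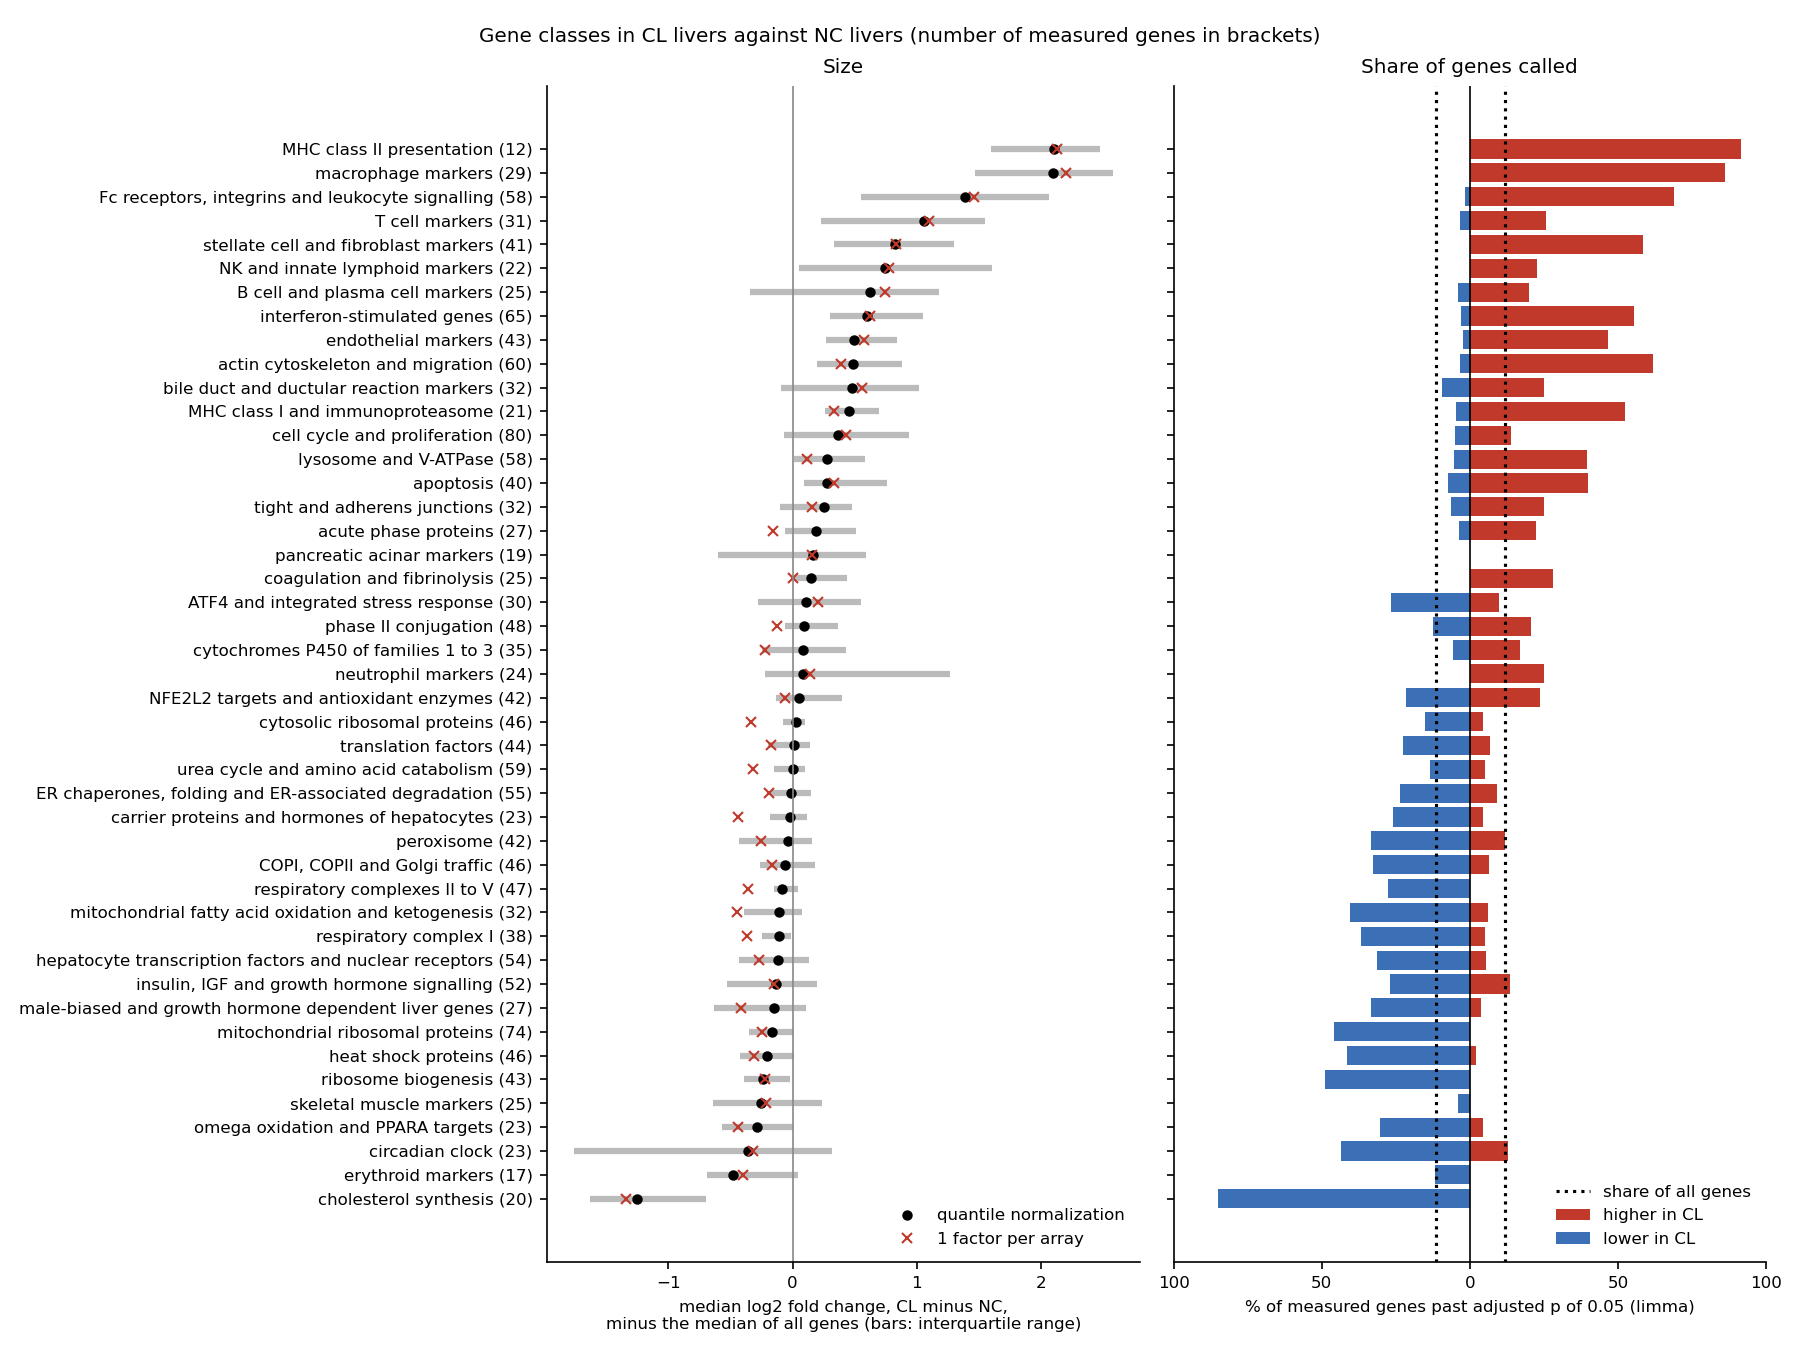
Left, median log2 fold change of each gene class between CL and NC minus the median of all genes (horizontal axis), as points for quantile normalization with bars over the interquartile range and as crosses for 1 factor per array. Right, percent of the measured genes of each class past an adjusted p of 0.05, higher in CL to the right (red) and lower to the left (blue), with dotted lines at 12.0% and 11.3%, the shares among all genes; MHC class II genes lie at 2.11 and cholesterol synthesis at -1.26.

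Clock genes were called in both directions. In the molecular clock, ARNTL pairs with CLOCK or NPAS2 and switches on genes through E-boxes, among them Per and Cry genes, whose products shut the pair off, and output factors such as DBP and TEF, which bind D-boxes. The level of most of these transcripts depends on the hour of the day. Of 23 measured clock genes, 3 rose and 10 fell, against 12.0% and 11.3% of all genes, and the class median was -0.36 (-0.32 with 1 factor per array). The 3 that rose were Npas2, Arntl and Clock, which form the activating pair. Arntl and Clock, like Tef and Ciart below, were named after their values had been seen.

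Npas2 had log2 signals of 3.73, -0.55, -0.68, 3.30 and 4.50 in NC and of 4.84, 6.06, 5.81, 5.92 and 5.68 in CL. Its NC signals are dim and scattered, which makes the rise of 3.60 (SE 0.71, adjusted p = 0.000917) imprecise. Arntl had 6.70, 5.37, 5.94, 6.06 and 6.80 in NC and 7.58, 7.59, 8.09, 7.41 and 7.37 in CL, a rise of 1.43 (SE 0.25, adjusted p = 0.00025). Clock rose by 0.62 (SE 0.16, adjusted p = 0.0102), with NC replicate 5 at 8.54 above all CL livers. NC replicates 1 and 5 had the highest signals of their group for Npas2, Arntl and Clock.

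The 10 clock genes that fell include repressors and outputs, while 10 others did not pass. Among the latter, and named after their values were seen, the repressor Cry1 had 0.31 (adjusted p = 0.307) and the repressor Bhlhe41 -0.4 (adjusted p = 0.787). Per1, a repressor, had 8.49, 8.72, 8.71, 8.70 and 8.53 in NC and 6.31, 6.86, 7.02, 7.16 and 6.88 in CL, a fall of 1.79 (SE 0.19, adjusted p = 1.25e-06). Per3 fell by 2.48 (SE 0.38, adjusted p = 7.27e-05), and all of its 6 probe sets had this sign. Dbp had 9.69, 10.61, 10.43, 10.31 and 8.85 in NC and 8.12, 6.53, 7.19, 6.33 and 7.53 in CL, a fall of 2.84 (SE 0.39, adjusted p = 2.22e-05). NC replicates 1 and 5, high for the activators, had the lowest Dbp and the lowest Per3 of the NC livers (6.36 and 5.27, against 7.52 to 8.0 in the others), so the mice differed along the same line within the group. Noct, a rhythmic gene, fell by 2.27 (SE 0.29), Usp2, a rhythmic ubiquitin protease, by 2.14 (SE 0.25) and Tef by 0.99 (SE 0.13). Ciart, a repressor of the pair, fell by 4.51 (SE 0.75), from 5.66 to 8.09 in NC to 0.80 to 4.05 in CL. The mean log2 signal of Dbp was 9.98 in NC, 7.14 in CL, 6.10 in CL + AX and 7.24 in CL + VE, so the 3 groups on the CL diet were all below the NC mean.

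**Figure D3:**
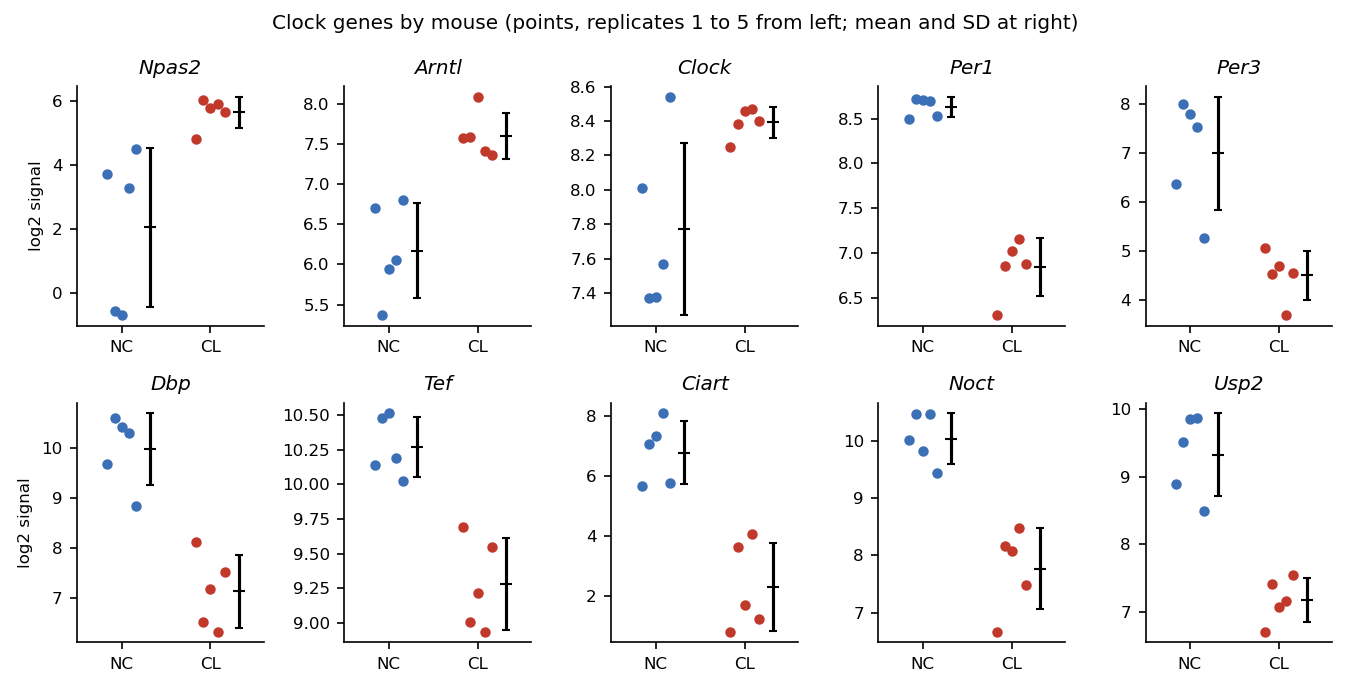
Log2 signal (vertical axes, each with its own range) of 10 clock genes in the 5 NC livers (blue) and the 5 CL livers (red), with replicates 1 to 5 from left to right and the mean and SD beside them. Npas2 and Arntl lie higher in every CL liver, Clock overlaps in 1 NC liver, and the other 7 genes lie lower in every CL liver.

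The letters through which the clock acts can be seen in front of some of these genes. The stretches below were read from the RefSeq promoters of build GRCm38.p6 and end before the start of the gene. Per1 and Tef are shown for the E-box and Per3 for the D-box, each motif in capitals.
Per1 (chr11:69098726-69098845, + strand): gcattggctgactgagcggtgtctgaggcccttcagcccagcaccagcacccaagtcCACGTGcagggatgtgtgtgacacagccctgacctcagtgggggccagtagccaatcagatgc
Tef (chr15:81802489-81802608, + strand): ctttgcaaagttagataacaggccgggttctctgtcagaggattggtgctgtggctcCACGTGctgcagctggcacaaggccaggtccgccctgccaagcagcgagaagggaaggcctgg
Per3 (chr4:151044760-151044879, - strand): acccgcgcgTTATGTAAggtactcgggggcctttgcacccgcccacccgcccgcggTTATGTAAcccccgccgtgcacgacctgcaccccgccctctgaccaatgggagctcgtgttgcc
The E-box, CACGTG, which reads the same on both strands, was found within 250 bases before the start in 5 of the 20 clock genes that the table holds, and in 6.05% of all 27025 promoters. Of the 9 lower genes with a promoter, 3 hold it, of the 3 higher ones none does, and of the 8 that did not pass, 2 do. The D-box, TTATGTAA, searched on both strands, was found in Per3 alone among these 20 genes, in 2 copies, and in 0.86% of all promoters. These windows leave out more distant elements.

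In the mitochondrial lists more genes fell than rose, by small amounts, and many members did not pass. Of 74 measured genes of mitochondrial ribosomal proteins, which translate the few proteins encoded in the organelle, 34 fell and none rose, against 11.3% and 12.0% of all genes. The class median was -0.16 and -0.25 with 1 factor per array, although without scaling, where the median of all genes was 0.39, 2 fell and 16 rose. Mrpl15 had log2 signals of 10.79, 10.74, 10.80, 10.66 and 10.51 in NC and of 10.09, 9.89, 10.09, 9.85 and 9.93 in CL, a fall of 0.73 (SE 0.07, adjusted p = 4.53e-07), a sign that 6 of its 8 probe sets shared. The groups did not overlap. Mrps5 fell by 0.80 (SE 0.11), Mrpl44 by 0.62 (SE 0.08) and Mrpl41 by 0.58 (SE 0.08).

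Fewer subunits of the respiratory chain were called. In complex I, which takes electrons from NADH, 14 of 38 genes fell (36.8%) and 2 rose (5.3%), against 11.3% and 12.0% of all genes. The respiratory lists are bright, with median NC log2 signals of 11.29 for complex I and 11.71 for complexes II to V. In the brightest of 10 equal bins of genes, 20.6% fell and 20.7% rose. With 1 factor per array, 38.0% fell and 13.2% rose in that bin, and its median was -0.19. The complex I median was -0.11 (-0.36 with 1 factor per array, and no gene lower and 1 higher without scaling). Ndufa5, an accessory subunit, had 11.04, 11.14, 11.15, 11.17 and 11.16 in NC and 10.51, 10.48, 10.61, 10.60 and 10.58 in CL, a fall of 0.57 (SE 0.07, adjusted p = 3.44e-06). Ndufa2 fell by 0.44 (SE 0.06). In complexes II to V, 13 of 47 genes fell (27.7%) and none rose. Their median was -0.09 (-0.36 with 1 factor per array, and none lower and 2 higher without scaling). Cox10, which makes the heme of cytochrome oxidase, fell by 0.84 (SE 0.13), and Cyc1, cytochrome c1, by 0.37 (SE 0.06). Of 24 genes of the citrate cycle, 8 fell (33.3%) and 4 rose (16.7%). Their median was -0.02 (-0.23 with 1 factor per array, and none lower and 4 higher without scaling).

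Transcripts of fat oxidation that fell encode transporters as well as enzymes, and most members of both lists did not pass. Of 32 genes of mitochondrial fatty acid oxidation and ketogenesis, 13 fell and 2 rose, with a median of -0.11 (-0.45 with 1 factor per array, and 4 lower and 2 higher without scaling). Their median NC log2 signal was 11.61, and in the brightest of 10 equal bins of genes 20.6% fell and 20.7% rose. Slc25a20, which carries acylcarnitines into the mitochondrion, had 12.42, 12.36, 12.22, 12.28 and 12.33 in NC and 11.65, 11.76, 11.64, 11.64 and 11.74 in CL, a fall of 0.64 (SE 0.06, adjusted p = 4.15e-07). Slc22a5, the carnitine transporter of the cell surface, fell by 1.05 (SE 0.14), Decr1, which handles unsaturated fatty acids, by 0.52 (SE 0.06) and Acadvl, the dehydrogenase for very long chains, by 0.44 (SE 0.05). Of 42 peroxisomal genes, 14 fell and 5 rose, with a median of -0.04 (-0.25 with 1 factor per array, and 5 lower and 9 higher without scaling). Pex11a, which drives the division of peroxisomes, fell by 1.06 (SE 0.16), Pex16, needed to build their membrane, by 0.91 (SE 0.13) and Acot4, a thioesterase of their matrix, by 0.91 (SE 0.12).

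Targets of PPARA, the receptor that turns on fat oxidation in fasting, were lower more often than higher. Of 23 genes of omega oxidation and other PPARA targets, 7 fell and 1 rose, with a median of -0.29 (-0.44 with 1 factor per array). Acot3, a peroxisomal thioesterase, had 10.09, 10.99, 10.67 and 10.45 in NC replicates 1, 3, 4 and 5, a level just above these in NC replicate 2, and 8.24, 8.78, 8.74, 8.98 and 8.18 in CL, a fall of 2.06 (SE 0.22, adjusted p = 1.35e-06). Cyp4a31, which hydroxylates the end of fatty acids, fell by 1.83 (SE 0.28), with NC replicate 5 lowest of its group and the other NC livers at 10.99 to 11.40. Fabp2, a fatty acid binding protein, was the gene of this list that rose, by 0.94 (SE 0.08, adjusted p = 1.28e-07).

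Genes that build ribosomes were called lower in part, and 22 of 43 did not pass. Of 43 genes of ribosome biogenesis, 21 fell and none rose, with a median of -0.24 (-0.22 with 1 factor per array, and none lower and 8 higher without scaling). Polr1c, a subunit shared by RNA polymerases I and III, had 8.48, 8.43, 8.28, 8.18 and 8.18 in NC and 7.67, 7.60, 7.60, 7.71 and 7.78 in CL, a fall of 0.64 (SE 0.08, adjusted p = 6.67e-06). Nop2, a methyltransferase of rRNA, fell by 0.88 (SE 0.12) and Tsr1, which helps to assemble the small subunit, by 0.67 (SE 0.10). Of 46 cytosolic ribosomal proteins that a probe set names alone, 7 fell (15.2%) and 2 rose (4.3%). Their median of 0.02 turned to -0.34 with 1 factor per array, where 31 fell and 1 rose. Of 44 translation factors, 10 fell (22.7%) and 3 rose (6.8%), beside 20.6% lower and 20.7% higher in the brightest of 10 equal bins of genes. The median of the translation factors was 0.01, and -0.18 with 1 factor per array. Eif3k, a subunit of the EIF3 complex, fell by 0.54 (SE 0.07) and Eef2, which moves the ribosome along, by 0.36 (SE 0.06).

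Heat shock proteins and their partners, most of them chaperones, were called mainly lower, and 26 of 46 did not pass. Of 46 heat shock genes and their partners, 19 fell and 1 rose, with a median of -0.20 (-0.31 with 1 factor per array, and 3 lower and 3 higher without scaling). Cct3, a subunit of the TRiC chaperonin that folds actin and tubulin, had 11.18, 10.90, 10.89, 10.90 and 11.02 in NC and 10.37, 10.38, 10.32, 10.48 and 10.54 in CL, a fall of 0.56 (SE 0.07, adjusted p = 1.17e-05), a sign that 5 of its 7 probe sets shared. Tcp1, another subunit, fell by 0.53 (SE 0.08), Hspa8, the constitutive HSP70, by 0.54 (SE 0.09) and Fkbp5, a co-chaperone that glucocorticoids induce, by 1.53 (SE 0.22). In the secretory pathway, 13 of 55 genes of folding and disposal in the endoplasmic reticulum fell (23.6%) and 5 rose (9.1%). In the brightest of 10 equal bins of genes, 20.6% fell and 20.7% rose. The median of the 55 genes was -0.01 (-0.19 with 1 factor per array, and none lower and 13 higher without scaling). Without NC replicate 1, 3 or 4 or CL replicate 4, 8 of them were lower, and without CL replicate 2, 7. Calr, the calcium-binding lectin chaperone calreticulin, fell by 0.44 (SE 0.09). Of 46 genes of COPI, COPII and Golgi traffic, 15 fell and 3 rose, with a median of -0.06 (-0.17 with 1 factor per array, and none lower and 13 higher without scaling), among them Copz1, a coat subunit of returning vesicles, which fell by 0.45 (SE 0.07).

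**Figure D4:**
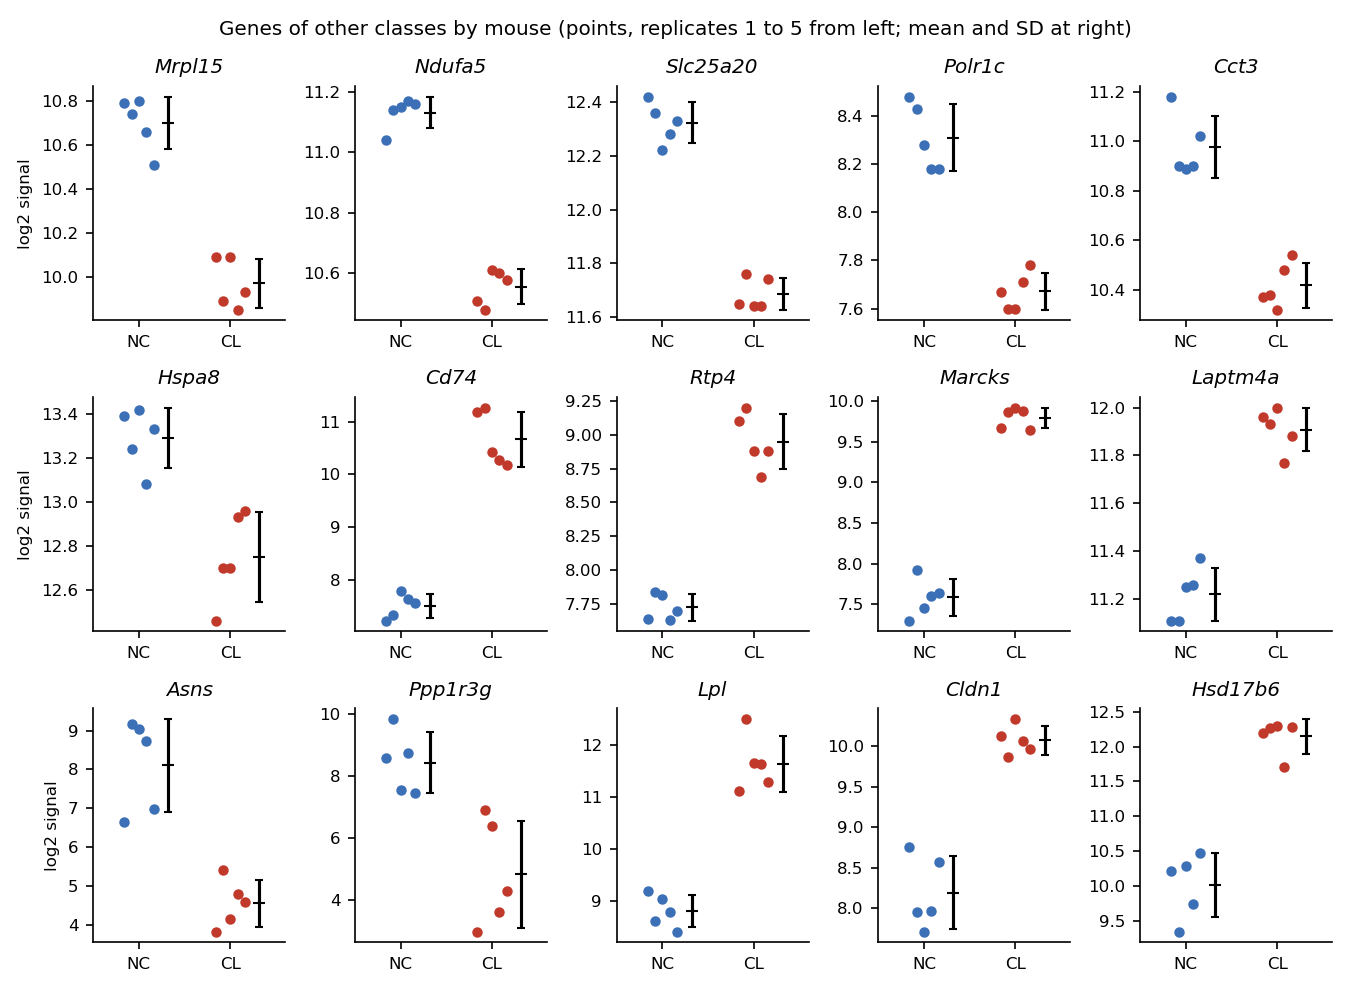
Log2 signal (vertical axes, each with its own range) of 15 genes in the 5 NC livers (blue) and the 5 CL livers (red), with replicates 1 to 5 from left to right and the mean and SD beside them. For each of these 15 genes the CL livers lie wholly above or wholly below the NC livers, by -0.73 for Mrpl15, by 3.16 for Cd74 and by -3.55 for Asns on the log2 scale.

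Genes of amino acid and sugar metabolism were called in both directions. Of 59 genes of the urea cycle and amino acid breakdown, 8 fell (13.6%) and 3 rose (5.1%), with a median of 0.00 (-0.32 with 1 factor per array, where 26 fell and 2 rose). Tat, which starts tyrosine breakdown, fell by 0.59 (SE 0.11), Gpt2, an alanine aminotransferase, by 0.58 (SE 0.09) and Bckdha, of the branched-chain ketoacid dehydrogenase, by 0.44 (SE 0.06), while Otc, of the urea cycle, rose by 0.43 (SE 0.09) but had 0.16 (adjusted p = 0.374) with 1 factor per array. Of 30 genes tied to ATF4, 8 fell, Asns by far the most, and 3 rose, with a median of 0.11 (0.20 with 1 factor per array). Without NC replicate 2 or 4 or CL replicate 4, 5 of them were lower. Of 40 genes of glycolysis, gluconeogenesis and glycogen, 10 rose and 6 fell, with a median of 0.04 (-0.12 with 1 factor per array, where 13 rose and 11 fell). Gbe1, which branches glycogen, rose by 1.02 (SE 0.13) and Hk2, a hexokinase that healthy liver hardly makes, by 1.41 (SE 0.22), while Aldoc, an aldolase, fell by 1.66 (SE 0.25).

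Genes of hormone response and hepatocyte identity were lower in part. Of 52 genes of insulin, IGF and growth hormone signalling, 14 fell and 7 rose, with a median of -0.14 (-0.15 with 1 factor per array, and 3 lower and 18 higher without scaling). Without NC replicate 1, 11 were higher. Akt2, the main insulin-responsive AKT kinase of liver, had 8.71, 8.84, 8.81, 8.85 and 8.71 in NC and 8.20, 8.14, 8.25, 8.13 and 8.23 in CL, a fall of 0.59 (SE 0.07, adjusted p = 2.61e-06), and all of its 3 probe sets had this sign. Insr, the insulin receptor, fell by 0.57 (SE 0.08) on its brightest probe set, and its other 2 probe sets had the opposite sign. Igfals, which keeps IGF1 in circulation, fell by 0.79 (SE 0.15), and Serpina6, the carrier of corticosterone, by 1.23 (SE 0.25), with CL replicate 3 above the lowest NC liver. Of 27 male-biased and growth hormone dependent genes, 9 fell and 1 rose, with a median of -0.15 (-0.41 with 1 factor per array).

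Of 54 hepatocyte transcription factors and nuclear receptors, 17 fell and 3 rose, with a median of -0.12 (-0.27 with 1 factor per array, and 1 lower and 13 higher without scaling). Without NC replicate 5, 7 were higher, and without CL replicate 1, 5. Foxa3, a pioneer factor of liver genes, had 9.60, 9.67, 10.26, 9.94 and 10.15 in NC and 8.75, 9.02, 8.86, 9.15 and 8.80 in CL, a fall of 1.01 (SE 0.13, adjusted p = 1.89e-05). Rxra, the partner of many nuclear receptors, fell by 0.44 (SE 0.07) and Creb3l3, a membrane-bound factor of fasting genes, by 0.32 (SE 0.05). Hnf4a, the central factor of hepatocytes, fell by 0.29 (SE 0.09, adjusted p = 0.033), but its other 3 probe sets had the opposite sign, the groups overlapped, and the call was lost in 5 of the 10 fits without 1 array (adjusted p = 0.0602 to 0.106).

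For enzymes of detoxification and for secreted proteins, the sign of the class medians or the split of the calls depended on the scaling. Of 35 cytochromes P450 of families 1 to 3, 6 rose (17.1%) and 2 fell (5.7%). Their median of 0.09 turned to -0.22 with 1 factor per array. Cyp2c70, which makes the muricholic acids of rodents, rose by 1.64 (SE 0.22). Of 48 genes of phase II conjugation, 10 rose (20.8%) and 6 fell (12.5%), with a median of 0.09 (-0.13 with 1 factor per array). Gsta4, which conjugates products of lipid peroxidation, rose by 1.07 (SE 0.16). Hsd17b6, a steroid dehydrogenase, had 10.21, 9.34, 10.29, 9.74 and 10.47 in NC and 12.20, 12.27, 12.29, 11.70 and 12.28 in CL, a rise of 2.14 (SE 0.16, adjusted p = 4.23e-08), and Cyp17a1, a steroid hydroxylase, fell by 2.04 (SE 0.29).

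Of 27 acute phase proteins, 6 rose and 1 fell, with a median of 0.19 (-0.16 with 1 factor per array, where 2 rose and 7 fell). Their mean log2 signal per liver was 10.23 and 10.46 in NC replicates 1 and 5, 11.86 to 11.96 in the other NC livers and 11.27 to 11.51 in CL, so the CL livers lay between the NC livers. Steap4, a metalloreductase that inflammation induces, rose by 1.67 (SE 0.25). Of 25 genes of coagulation and fibrinolysis, 7 rose, none fell and the median was 0.15 (0.01 with 1 factor per array, where 6 rose and 7 fell). Fga and Fgb, fibrinogen chains, rose by 0.31 each (SE 0.05), with the groups apart, but with 1 factor per array they had -0.03 (adjusted p = 0.877) and -0.04 (adjusted p = 0.847), and F5, coagulation factor V, went from a rise of 0.36 (SE 0.06) to 0.10 (adjusted p = 0.374). Of 23 carrier proteins and hormones of hepatocytes, 6 fell and 1 rose, with a median of -0.02 (-0.44 with 1 factor per array). Lpl, lipoprotein lipase, which adult hepatocytes make little of, had 9.20, 8.63, 9.04, 8.80 and 8.42 in NC and 11.11, 12.50, 11.65, 11.64 and 11.28 in CL, a rise of 2.81 (SE 0.24, adjusted p = 1.08e-07). Scarb1, the receptor for high-density lipoprotein, rose by 0.83 (SE 0.09).

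Genes of antigen presentation to helper T cells were higher in CL, with 1 of 12 not called. Of 12 genes of MHC class II presentation, 11 rose, none fell and the median was 2.11 (2.13 with 1 factor per array). Cd74, the chain that guides class II molecules, had 7.22, 7.33, 7.79, 7.64 and 7.55 in NC and 11.19, 11.27, 10.43, 10.28 and 10.18 in CL, a rise of 3.16 (SE 0.31, adjusted p = 6.21e-07). H2-Eb1, H2-Ab1 and H2-Aa, chains of the class II molecules, rose by 2.90 (SE 0.29), 2.56 (SE 0.27) and 2.31 (SE 0.24). CL replicates 1 and 2 had the highest signals of their group for all 4 genes. Of 21 genes of MHC class I and the immunoproteasome, 11 rose and 1 fell, with a median of 0.45 (0.33 with 1 factor per array, and 6 higher and 4 lower with median centring), among them Psmb8, an immunoproteasome subunit, which rose by 1.17 (SE 0.16).

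Genes of leukocyte signalling and macrophage markers were called mainly higher. Of 58 genes of Fc receptors, integrins and leukocyte signalling, 40 rose and 1 fell, with a median of 1.39 (1.46 with 1 factor per array). Cybb, the catalytic subunit of the phagocyte NADPH oxidase, rose by 2.89 (SE 0.36), Cd44, a hyaluronan receptor, by 2.34 (SE 0.27) and Fcer1g, the shared chain of Fc receptors, by 2.23 (SE 0.27). Of 29 macrophage markers, 28 of them at or above the median brightness, 25 rose, none fell and the median was 2.10 (2.21 with 1 factor per array). Their mean log2 signal per liver was 5.61 to 6.77 in NC and 7.76 to 9.25 in CL, with Adgre1, the F4/80 antigen, up by 1.42 (SE 0.30) and Clec4f, a lectin of Kupffer cells, by 1.22 (SE 0.26). Of 33 genes of Toll-like receptors and the inflammasome, 18 rose and 1 fell, with a median of 0.62 (0.67 with 1 factor per array). Casp1, the inflammasome protease, rose by 1.54 (SE 0.20), while Tlr5, the receptor for flagellin, fell by 1.33 (SE 0.16).

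The lymphocyte and neutrophil lists hold many dim genes, with 9 of 31 T cell, 9 of 22 NK, 15 of 25 B cell and 11 of 24 neutrophil markers at or above the median brightness, and they were not tested against the macrophage list. Their medians were 1.06, 0.74, 0.62 and 0.09. Of 31 T cell markers, 8 rose and 1 fell, of 22 NK and innate lymphoid markers, 5 rose and none fell, and of 25 B cell and plasma cell markers, 5 rose and 1 fell, with mean log2 signals per liver of 2.55 to 3.31, 2.41 to 3.31 and 4.63 to 4.90 in NC and of 3.30 to 4.11, 3.46 to 4.12 and 4.93 to 5.43 in CL. Without CL replicate 2, 4 T cell and 2 B cell markers were higher, without NC replicate 1, 5 T cell markers, and without CL replicate 3, 3 B cell markers. Cd3g, a chain of the T cell receptor complex, had 3.10, 4.15, 4.19, 4.26 and 3.78 in NC and 6.25, 5.28, 5.30, 5.04 and 4.86 in CL, a rise of 1.45 (SE 0.30, adjusted p = 0.00158). Klrd1, a receptor of NK cells, rose by 2.27 (SE 0.34). Of 24 neutrophil markers, 6 rose and none fell. Those with the smallest p were Cybb, named above, Clec4e, Fpr2 and Ncf1. Clec4e rose by 3.99 (SE 0.61) from a dim NC mean of 0.75, Fpr2 by 2.08 (SE 0.38) and Ncf1 by 1.13 (SE 0.25). Mpo, myeloperoxidase of neutrophil granules, was among the 18 that did not pass, with -0.70 (SE 0.34, adjusted p = 0.184).

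Interferon-stimulated genes were called mainly higher, and 27 of 65 did not pass. Of 65 measured genes, 36 rose and 2 fell, with a median of 0.60 (0.62 with 1 factor per array). Rtp4, a chaperone-like interferon target, had 7.64, 7.84, 7.82, 7.63 and 7.70 in NC and 9.10, 9.20, 8.88, 8.69 and 8.88 in CL, a rise of 1.22 (SE 0.12, adjusted p = 4.04e-07). Trim30a, a ubiquitin ligase, rose by 1.32 (SE 0.14), Samd9l, an antiviral factor, by 1.33 (SE 0.15), Bst2, tetherin, by 0.75 (SE 0.08) and Gbp2, a guanylate-binding protein that interferon gamma induces and that was named after its values were seen, by 2.07 (SE 0.38). Macrophages express many of these genes, and the part of the macrophage markers, whose levels are given above, was not tested.

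Promoters of Trim30a, Bst2 and Gbp2, all higher in CL, are shown for the interferon-stimulated response element (ISRE), the letters that interferon-activated factors bind. They come from the same RefSeq promoters of GRCm38.p6, with the element in capitals.
Trim30a (chr7:104465194-104465313, - strand): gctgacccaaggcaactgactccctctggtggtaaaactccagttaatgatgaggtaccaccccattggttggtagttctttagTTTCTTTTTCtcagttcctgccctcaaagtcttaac
Bst2 (chr8:71537532-71537651, - strand): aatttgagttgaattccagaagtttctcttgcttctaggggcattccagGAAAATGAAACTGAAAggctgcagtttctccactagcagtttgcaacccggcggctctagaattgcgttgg
Gbp2 (chr3:142620543-142620662, + strand): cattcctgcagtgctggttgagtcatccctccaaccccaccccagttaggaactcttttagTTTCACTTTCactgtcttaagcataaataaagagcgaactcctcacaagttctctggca
The element was searched as GAAA, any 2 bases and GAAA, on both strands within 250 bases before the start. It was found in 18 of the 51 members that the table holds and in 3.04% of all promoters. Bst2 holds 2 overlapping copies. Of the 29 members that rose and have a promoter, 10 hold it, and of the 20 that did not pass, 8 do, so the letters did not separate the genes that rose from those that did not pass.

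Genes of the actin cytoskeleton and of the lysosome were called mainly higher. Of 60 genes of the actin cytoskeleton and migration, 37 rose and 2 fell, with a median of 0.49 (0.39 with 1 factor per array). Marcks, which ties actin to the membrane, had 7.30, 7.92, 7.46, 7.61 and 7.64 in NC and 9.67, 9.86, 9.91, 9.88 and 9.64 in CL, a rise of 2.21 (SE 0.21, adjusted p = 4.15e-07). Tmsb4x, thymosin beta 4, rose by 1.67 (SE 0.19) and Coro1a, a coronin of leukocytes, by 1.91 (SE 0.30). Of 58 genes of the lysosome and its proton pump, 23 rose and 3 fell, with a median of 0.28 (0.12 with 1 factor per array), while with median centring 12 rose and 11 fell. Laptm4a, a lysosomal membrane protein found in most cells, had 11.11, 11.11, 11.25, 11.26 and 11.37 in NC and 11.96, 11.93, 12.00, 11.77 and 11.88 in CL, a rise of 0.69 (SE 0.06, adjusted p = 3.03e-07). Ctss, cathepsin S of antigen-presenting cells, rose by 2.40 (SE 0.32), while Gaa, which breaks down glycogen in lysosomes, fell by 0.62 (SE 0.10). The part of the macrophage markers in these rises was not tested.

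Stellate cell and endothelial markers were called mainly higher, and most bile duct and junction genes did not pass. Of 41 stellate cell and fibroblast markers, 24 rose, none fell and the median was 0.82 (0.84 with 1 factor per array). Without CL replicate 2, whose mean over these markers was 7.35 against 6.70 to 6.85 in the other CL livers, 17 rose. CL replicate 2 also had the highest mean of the macrophage markers, 9.25, and their part in these rises was not tested. Vim, vimentin, rose by 2.03 (SE 0.27), Pdgfra, a growth factor receptor of fibroblasts, by 1.38 (SE 0.23) and Lrat, the enzyme that esterifies retinol for storage, by 1.26 (SE 0.20). Of 43 endothelial markers, 20 rose and 1 fell, with a median of 0.50 (0.57 with 1 factor per array), among them Fli1, a transcription factor of vessels and blood cells, by 1.55 (SE 0.21) and Stab2, a scavenger receptor of sinusoids, by 0.67 (SE 0.11). Clec4g, a lectin of the same cells, rose by 0.62 (SE 0.17), with 1 of its 2 probe sets having this sign. Of 32 bile duct markers, 8 rose and 3 fell, with Krt23, a keratin of stressed liver epithelium, up by 2.09 (SE 0.34). Over the 48 measured keratins, Krt23 was the 1 that rose, and 3 fell. Of 32 genes of tight and adherens junctions, 8 rose and 2 fell, with a median of 0.25 (0.16 with 1 factor per array), while with median centring 5 rose and 5 fell. Cldn1, a claudin of hepatocyte and bile duct junctions, had 8.76, 7.95, 7.71, 7.97 and 8.57 in NC and 10.13, 9.87, 10.34, 10.06 and 9.97 in CL, a rise of 1.88 (SE 0.16, adjusted p = 1.47e-07). Ctnnb1, beta-catenin, rose by 0.51 (SE 0.06).

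Stress and death genes went in both directions. Of 42 targets of NFE2L2 and antioxidant enzymes, 10 rose (23.8%) and 9 fell (21.4%). Their median was 0.05 (-0.06 with 1 factor per array). Nfe2l2 itself rose by 0.90 (SE 0.12) and Hmox1, heme oxygenase 1, by 1.64 (SE 0.23). Of 40 apoptosis genes, 16 rose and 3 fell, with a median of 0.28 (0.33 with 1 factor per array), among them Mcl1, a survival factor of the BCL2 family, by 0.72 (SE 0.09). Ccng1, a p53 target, rose by 0.74 (SE 0.10). Of 80 genes of the cell cycle, 11 rose (13.8%) and 4 fell (5.0%), with a median of 0.36 (0.43 with 1 factor per array). Without CL replicate 2, 7 of them rose. Ncapg2, a condensin subunit, rose by 2.07 (SE 0.24).

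The means of the 2 supplemented groups were set beside the ranges of the NC and CL livers for the classes that differed, with no test. The mean log2 signal of the 74 mitochondrial ribosomal genes was 8.97 to 9.06 in the NC livers and 8.67 to 8.88 in the CL livers, with group means of 8.78 in CL + AX and 8.86 in CL + VE. For ribosome biogenesis the NC livers had 8.18 to 8.28 and the CL livers 7.92 to 8.01, with 8.0 in CL + AX and 8.06 in CL + VE, the latter between the NC and CL ranges. For interferon-stimulated genes the range was 6.81 to 7.12 in NC and 7.34 to 7.83 in CL, with 7.57 and 7.51, both within the CL range. For clock genes it was 7.29 to 7.88 in NC and 6.88 to 7.02 in CL. The group mean was 6.67 in CL + AX, below both ranges, and 6.92 in CL + VE, within the CL range. The array medians of CL + VE, 17.0 to 20.7, and its thr ratios, 1.95 to 3.05, overlapped those of NC, while its dap ratios, 0.992 to 2.26, lay wholly below them. In CL + AX the medians were 26.4 to 27.7, the thr ratios 1.82 to 2.23 and the dap ratios 1.05 to 1.31.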

How the data were processed

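Total RNA of each mouse liver was labelled with biotin by a 3' in vitro transcription kit and hybridized to an Affymetrix mouse array. The deposited values are MAS5 signal intensities that the authors made from the scans, 1 linear value per probe set and array, and their medians differ between arrays. Background and mismatch correction had been applied before deposit, which makes low intensities noisy.

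After 64 control probe sets were removed, the intensities were taken to log2 and quantile normalized, and 45037 probe sets were fitted with limma 3.58.1 in R 4.3.3 in 1 model of the 4 diet groups over 20 arrays, with a trended prior and 16 residual degrees of freedom. P-values were adjusted by Benjamini-Hochberg over all probe sets, with a threshold of 0.05. The errors printed with fold changes are the standard errors of the fitted coefficients. The replicates are separate mice, and the number of arrays, 5 per group, limits the precision. No read depth applies to arrays.

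A gene was read from its brightest probe set that names it alone. The platform annotation names 1 gene for 34945 probe sets, several for 932 and none for 9160, and 18032 of the 18194 genes matched RefSeq (GRCm38.p6). Genes named are the 15 largest rises and 15 largest falls among those past the threshold, with groups that do not overlap and at least median brightness, and up to 4 members of each gene list with the smallest p. Defining markers of other cell types were named where they touch a result. The gene lists and their members were chosen with earlier results of these data known. Control measures were compared by a two-sided exact permutation test, adjusted over 19 measures.

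The script was tested on simulated data for CL minus NC over 45037 probe sets. With a simulated log2 change of 0.5 in 200 probe sets of at least median brightness, 29 were recovered, with 0 false calls. With a change of 1, 155 were recovered, and with a change of 2, 194, with 9 false calls each. Recovery of dim probe sets was not tested. The simulated noise was independent between probe sets, with no labelling difference between the groups and far fewer changed probe sets than the 7910 called. These figures describe that setting and not the real arrays. The alternatives were other scalings, an offset, bright probe sets only, no trend, 10 arrays, the methods' t-test, a replicate block, labelling covariates, the mean over a gene's probe sets and leaving out each array.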

Additional observations from a re-analysis of the deposited data

Results flagged for a closer look

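In 16 of 356 groups of 5 livers, for 133 genes and 45 gene class means, 1 liver lay so far from its group that its gap passed Dixon's 95% value of 0.71 of the range. Chance flags about 1 in 20 groups. All values are log2 signals.

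In the NC group, Calhm6 was -0.01 in replicate 1 (3.61 to 4.41 in the others), Ndufa5 was 11.04 in replicate 1 (11.14 to 11.17) and Cyc1 was 11.91 in replicate 1 (11.62 to 11.67). Cyp51 was 9.07 in replicate 2 (8.23 to 8.46), and the mean of the erythroid markers was 5.21 there (5.41 to 5.43). The mean of the phase II genes was 9.96 in replicate 4 (9.74 to 9.76). In replicate 5, Alas2 was 8.87 (9.33 to 9.51) and the mean of the male-biased and growth hormone dependent genes was 10.12 (10.63 to 10.73).

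In the CL group, Slc4a1 was 0.03 in replicate 1 (3.85 to 5.40). Replicate 2 held 4 of the 16: Cyp7a1 was 5.80 (8.29 to 8.82), Pdgfra was 8.22 (7.49 to 7.65), the mean of the stellate cell and fibroblast markers was 7.35 (6.70 to 6.85) and that of the lysosomal genes was 9.79 (9.39 to 9.50). In replicate 4, Lipg was 6.49 (5.41 to 5.68), Hsd17b6 was 11.70 (12.20 to 12.29) and Gsta4 was 10.13 (10.49 to 10.57).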

How the results depend on the processing

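The 7910 probe sets that differed (4178 higher, 3732 lower) became 3444 with the methods' t-test after Benjamini-Hochberg (1701 and 1743) and 10610 unadjusted. They became 1782 with the dap ratio as a covariate (1008 and 774) and 0 with the Gapdh ratio, where 0 were higher and 0 lower. Of the 4231 genes, 1959 differed with the t-test (943 and 1016), 1125 with the dap ratio (675 and 450) and 0 with the Gapdh ratio. Both ratios go with the diet groups, and the median SE rose 2.76 and 3.07 times. Without scaling, 10279 probe sets were higher and 435 lower, and 5132 genes were higher and 212 lower. The other settings gave 6246 to 8700 probe sets, the fewest with the 10 NC and CL arrays normalized and fitted alone.

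Without 1 array, 6769 to 8092 probe sets differed (3587 to 4369 higher, 3151 to 3723 lower) and 3614 to 4333 genes (1853 to 2274 higher, 1722 to 2059 lower), and 7 to 8 control measures. The replicate numbers did not pair the mice (correlations of deviations -0.087 to 0.107). With the replicate block 8076 probe sets differed, and none of the 133 named genes that were checked changed its call.

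The sign turned for Fga (-0.17 with median centring, -0.03 with 1 factor per array), Fgb (-0.18 and -0.04), F5 (-0.04 with median centring), Apoa1 (-0.02 without scaling, -0.53 with median centring, -0.38 with 1 factor) and Cps1 (-0.49 and -0.34, and -0.09 with the dap ratio). Without 1 array, Cps1 ranged from -0.01 to 0.03. With the Gapdh ratio, Alb had 0.21, Ttr 0.02 and Clec4g -0.19, and with the dap ratio Pex11a had 0.08. The cause of these turns was not tested. Dim genes limit the calls: in the dimmest of 10 equal bins of genes, 0.8% were higher and 1.2% lower. In the brightest bin, 20.7% were higher and 20.6% lower.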

Other observations

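Further gene groups of the CL livers are given by their counts, which stand beside 12.0% higher and 11.3% lower among all genes. Of 26 complement genes, 12 rose and 4 fell, with a median of 0.25 that turned to -0.07 with 1 factor per array. Of 30 chemokines, 14 rose and none fell (median 0.90), of 65 cytokines, their receptors and signalling genes, 27 rose and 3 fell (0.60), and of 39 immediate early and AP-1 genes, 13 rose and 2 fell (0.59). Of 25 fetal and regenerating liver genes, 8 rose and 1 fell, with a median of 0.65 (0.77 with 1 factor per array).

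Matrix genes rose in part. Of 42 matrix proteases, inhibitors and crosslinkers, 14 rose and 1 fell (median 0.54), and of 29 collagens, 6 rose and 1 fell (0.17). Of 72 genes of TGF-beta, BMP, WNT, Notch and Hedgehog signalling, 19 rose and 4 fell (0.32). Of 43 autophagy genes, 7 rose and 14 fell (-0.05), and of 41 proteasome genes, 10 rose and 14 fell (-0.03).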
